A study of Homo sapiens with 2 samples.

Results

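The core genes of Notch signalling were compared between side population and non-side population cells of J82, an established human bladder cancer cell line. The set holds 10 genes chosen by name: the ligand genes JAG1, JAG2 and DLL1, the receptor genes NOTCH1, NOTCH2 and NOTCH3, and the target genes HES1, HES4, HEY1 and NRARP. They were chosen with earlier results of these data known. Of these 10 genes, 7 had a probe set annotated with a single gene symbol, out of 14232 genes measured that way in the whole table. DLL1 and NOTCH2 had only a probe set shared with another gene, and no probe set carried the symbol NRARP. The side population (SP) is the fraction of cells that stays dim after Hoechst staining in flow cytometry because the DNA dye is exported, and the other cells form the non-side population (NSP). Both populations were sorted from J82 cells grown in DMEM with serum, with no treatment recorded, and total RNA of each was hybridised to 1 exon array. Each population is thus 1 sort of 1 cell line on 1 array. Differences between the populations therefore carry no replicate error and no p-value, and all statements describe these 2 arrays.

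Notch signalling passes between touching cells. A Jagged or Delta ligand on one cell binds a Notch receptor on its neighbour, the receptor is cut by an ADAM protease and then by gamma-secretase, and the freed intracellular domain enters the nucleus. There it joins the DNA-binding protein RBPJ and a Mastermind coactivator, and genes of the HES and HEY families, which encode repressors, are switched on. In many epithelia, the urothelium among them, the pathway takes part in the choice between growth and differentiation.

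The bases before the start of 3 genes are shown because JAG1 and HES1 had the largest differences between the arrays, and because HES4, a close relative of HES1, has a similar stretch in front of its start and did not differ in the same way. The sequences are those of RefSeq on GRCh38.p14, written 5′ to 3′ on the strand of the gene, and end at the last base before the annotated start. Capitals mark matches to the RBPJ core motif TGGGAA, extended to GTGGGAA where the preceding base fits. JAG1 lies at chr20:10674000-10674249 on the minus strand, HES1 at chr3:194135898-194136147 on the plus strand and HES4 at chr1:1000098-1000347 on the minus strand.
JAG1: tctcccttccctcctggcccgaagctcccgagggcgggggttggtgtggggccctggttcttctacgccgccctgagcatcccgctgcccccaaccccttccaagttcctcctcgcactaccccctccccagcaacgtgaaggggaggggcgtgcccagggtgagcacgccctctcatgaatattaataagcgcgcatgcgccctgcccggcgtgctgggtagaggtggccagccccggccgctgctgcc
HES1: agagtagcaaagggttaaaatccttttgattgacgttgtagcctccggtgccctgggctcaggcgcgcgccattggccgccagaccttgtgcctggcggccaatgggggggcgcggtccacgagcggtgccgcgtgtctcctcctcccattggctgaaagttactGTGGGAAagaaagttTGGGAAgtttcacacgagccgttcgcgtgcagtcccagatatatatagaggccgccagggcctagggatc
HES4: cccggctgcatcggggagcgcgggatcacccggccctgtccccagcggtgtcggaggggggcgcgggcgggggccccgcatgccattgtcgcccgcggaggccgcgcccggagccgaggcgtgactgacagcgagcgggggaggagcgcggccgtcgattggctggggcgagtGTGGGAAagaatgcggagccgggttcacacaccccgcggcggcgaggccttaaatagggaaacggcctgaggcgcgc

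Both strands were searched over 250 bases. The HES1 window held 2 core matches on the strand of the gene, which begin 84 and 70 bases before the start and have 8 bases between them. HES4 held 1, which begins 76 bases before the start. In both genes a match was also of the extended form GTGGGAA, which contains the core motif. HES1 and HES4 shared a run of 12 bases around it, tgtgggaaagaa, found on the same strand in 5 of all 35116 RefSeq windows. The run was picked as the longest that HES1 and HES4 share, so their own windows are among these 5. Some genes have more than 1 window. The core motif occurs in 20.8% of all 35116 windows, at least 2 copies in 2.90% and the extended form in 5.43%. Windows of 8 of the 10 genes were used, leaving out DLL1 and HEY1. Of these 8 genes only HES1 and HES4 held a core match. JAG1, JAG2, NOTCH1, NOTCH2, NOTCH3 and NRARP held none. HES proteins bind N boxes, CACNAG, which were found in 32.0% of all windows. HES1, whose protein is known to repress its own gene, held 3 of them, and at least 3 occur in 0.911% of windows. NOTCH3 held 1. A match is a description of letters, not a site shown to be bound.

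**Figure D1:**
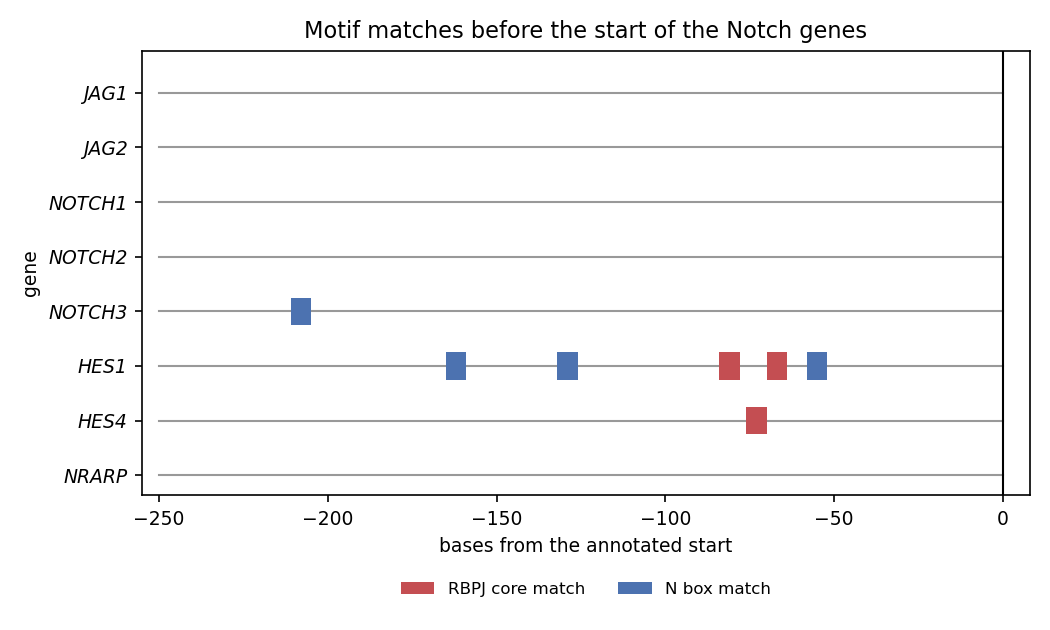
Matches to the RBPJ core motif (red) and to the N box (blue) in the 250 bases before the annotated start, with the distance from the start in bases on the x axis and 1 line per gene. HES1 holds 2 core matches and 3 N boxes, HES4 holds 1 core match, NOTCH3 1 N box and the other 5 genes none.

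The array values are log2 signals. A gene was counted only if at least 1 of its values was 7.44 or more. This level, the middle of all values in the table, is called the floor here. Of all genes, 7549 passed, with a median difference (SP minus NSP) of -0.05, and 59.6% of them were lower in SP. ABCB1, an efflux pump, had 9.87 in SP and 9.17 in NSP. ABCG2, the best known exporter of Hoechst, had 6.14 and 5.69, both under the floor. Which transporter exported the dye in these cells was not tested. Mesenchymal markers were at the floor or above for 5 of 5 genes and urothelial markers for 6 of 13, while the uroplakin genes UPK1A, UPK1B, UPK2 and UPK3A were under it on both arrays. Endothelial markers reached the floor for 1 of 10 genes, leukocyte markers for 3 of 8, smooth muscle and pericyte markers for 3 of 6 and erythroid markers for 0 of 2. PECAM1, CDH5 and PTPRC, which define endothelial cells and leukocytes, were under the floor on both arrays. CLDN5 of the endothelial list was above it, with 8.06 in SP and 8.17 in NSP. From the leukocyte list CD68 (9.35 in SP and 9.66 in NSP) and CD14 (7.73 and 7.64) were above it on both arrays. NKG7 (7.56 and 7.31) was above it on the SP array only.

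All 7 genes with a probe set of their own reached the floor, HEY1 on the NSP array only. JAG1 was at least 1.5-fold higher in SP and none of the 7 was as much lower. Across all genes at the floor the shares past 1.5-fold were 3.10% higher and 1.43% lower. At a lower threshold, where one linear signal exceeds the other by at least 25%, HES1 joined JAG1, so that 2 of the 7 genes were higher and none lower, against 8.57% and 10.7% of all genes. None reached 2-fold, as 0.609% of all genes did upwards and 0.119% downwards. The set is so small that a single gene moves its share far from that of all genes, so nothing is read from these counts. The median difference of the 7 genes was 0.02, with 4 genes higher and 3 lower in SP and 5 within 0.2 of 0. Over all 14232 genes the median was 0.00, 49.2% were higher and 49.5% lower in SP, and 65.1% lay within 0.2 of 0. Over the 7549 genes at the floor, where all 7 lay, the median was -0.05. Of those genes 40.1% were higher and 59.6% lower in SP, and 60% lay within 0.2 of 0.

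**Figure D2:**
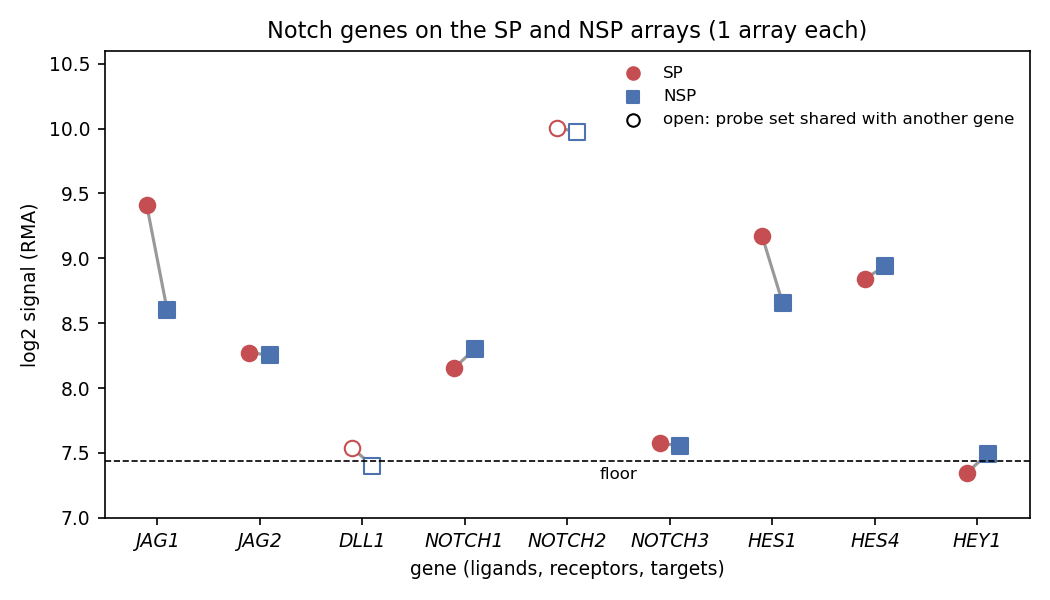
Log2 signal of each Notch gene on the SP array (red circles) and the NSP array (blue squares), 1 array each, with open symbols for probe sets shared with another gene and a dashed line at the floor of 7.44. JAG1 and HES1 stand apart between the arrays by 0.81 and 0.52, whereas for the other genes the symbols lie within 0.15 of each other. Heights of different genes come from different probes and are not comparable.

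Among the ligands, JAG1 alone stood apart. JAG1 encodes Jagged1, a transmembrane ligand of the Notch receptors. Its probe set, 3897505, had a value of 9.41 in SP and 8.60 in NSP, both above the floor. The difference of 0.81 corresponds to 1.75-fold and ranked 88th from the top among the 7549 genes. Of 2315 other genes with a mean level within 0.5 of that of JAG1, 95% had differences between -0.49 and 0.66, and 1.43% had a difference as high as that of JAG1 or higher. Since the genes were chosen with earlier results known, the ranks and shares of JAG1 and, below, of HES1 only place the values. In RNA from a sorted population, more cells with a transcript and more transcript per cell cannot be told apart. The summed linear signal of the endothelial markers, a cell type rich in Notch ligands, was 924 in SP and 894 in NSP. Their median difference was 0.12, 8 of 10 were higher in SP, and 9 were under the floor, where 59.6% of all genes were higher in SP. The smooth muscle and pericyte markers summed to 973 and 921, but single markers went opposite ways: PDGFRB had 8.53 in SP and 7.99 in NSP, and RGS5 6.75 and 7.69. Of these 6 markers 5 were higher in SP. The leukocyte markers summed to 1368 and 1455, with 4 of 8 higher. Urothelial markers summed to 12754 in SP and 9853 in NSP, most of it from KRT8 (13.18 and 12.77). Their median difference was 0.21, 11 of 13 were higher in SP, and 7 were under the floor. Of the 6 urothelial genes at the floor 1 passed 1.5-fold upwards and 0 downwards, beside 3.10% and 1.43% of all genes. That gene, PPARG, had 9.20 in SP and 8.50 in NSP. For comparison with each of these lists, 49.2% of all genes were higher in SP. The share was 40.1% at the floor and 59.6% under it. Both populations were sorted from 1 cell line, so these lists describe the signal of the marker genes and are not counts of cell types. The part of cell composition in the JAG1 value was not tested.

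JAG2, which encodes the second Jagged ligand, had nearly the same value on both arrays, 8.27 in SP and 8.25 in NSP (probe set 3581442). Its difference of 0.02 lay in the middle of genes of its level, 37.5% of which had the same or a higher difference. DLL1, a Delta-type ligand, was read only by a probe set shared with LOC285804, which had 7.54 in SP and 7.40 in NSP. The difference of 0.14 belongs to both genes together and lies near the floor. Of the ligand genes outside the set of 10, DLL4, best known from endothelial cells, had 7.42 in SP and 7.45 in NSP. DLL3, which acts on Notch mostly within the cell, had 6.91 and 7.09, both under the floor. DLK2, a Delta-like protein without the domain that binds the receptor in canonical ligands, had 7.90 and 7.83. Thus of 6 measured genes on the ligand list 4 reached the floor, and of these only JAG1 passed 1.5-fold.

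The receptor genes had similar values in both populations. NOTCH1, a large single-pass receptor with frequent loss-of-function mutations in squamous cancers, had 8.16 in SP and 8.30 in NSP (probe set 3230141). The difference of -0.15 corresponds to 1.11-fold lower in SP, and 32.0% of genes of its level were as low or lower. NOTCH3, known from vascular smooth muscle and itself induced by Notch signalling in some cells, had 7.57 in SP and 7.56 in NSP (probe set 3853108), close to the floor. Its difference was 0.02. NOTCH2 was read by a probe set shared with NOTCH2NLA, a partial copy of the gene of nearly the same sequence, at 10.00 in SP and 9.98 in NSP. NOTCH4, an endothelial receptor, shared its probe set with GPSM3, at 7.57 and 7.45. No receptor value, shared or not, differed by more than 0.15 between the arrays.

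The target genes did not move as 1 group. HES1, which encodes a repressor of the basic helix-loop-helix class and is the best known Notch target, had 9.17 in SP and 8.66 in NSP (probe set 2658595). The difference of 0.52 is 1.43-fold and ranked 302nd from the top of 7549 genes. Among 2383 other genes of similar level 4.45% had as high a difference or a higher one, so HES1 lay inside the central 95% of them (-0.50 to 0.67). HES4, a close paralogue of HES1, had 8.84 in SP and 8.94 in NSP (probe set 4054690), a difference of -0.10. HES4 thus gave no clear direction, and whether the run of bases shared with HES1 bears on either value was not tested. HEY1, a hairy-related repressor that acts in vessels and heart, had 7.35 in SP and 7.49 in NSP (probe set 3141755), a difference of -0.15 around the floor. NRARP, which encodes a small inhibitor in the complex of Notch and RBPJ and is induced by the pathway, has no value here.

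The remaining family members had low values. HES6, HEY2 and HEYL were under the floor on both arrays, with differences of 0.07, 0.00 and 0.12. HES7, a gene of the segmentation clock, had 7.49 in SP and 7.43 in NSP. HES5 had no single-symbol probe set. Of 8 measured genes on the HES, HEY and NRARP list 4 reached the floor, and none was 1.5-fold higher or lower. The list median was 0.07, with 6 genes higher and 2 lower in SP, but over the 4 genes at the floor the median was -0.02. Under the floor 59.6% of all genes were higher in SP, and at the floor 40.1%.

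**Figure D3:**
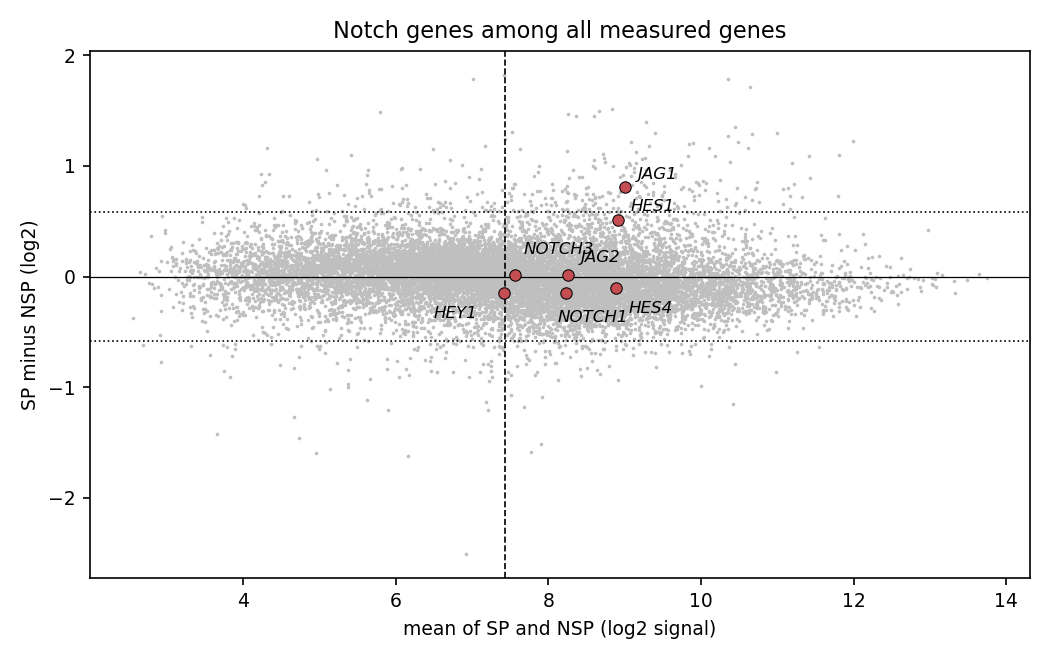
SP minus NSP (log2) against the mean log2 signal of both arrays for all 14232 genes (grey) and for the 7 Notch genes with a probe set of their own (red), with dotted lines at 1.5-fold and a dashed line at the floor. JAG1, at 0.81, lies above the upper dotted line, HES1, at 0.52, just under it, and the other 5 genes between -0.15 and 0.02.

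How far probe sets of 1 gene disagree on these arrays was described with genes that have more than 1 probe set. For 57 genes with both probe sets at the floor, the differences from the 2 probe sets of a gene were 0.20 apart in the median and 0.66 apart at the 95th percentile. A gap as large as the difference of JAG1 was seen in 2 of the 57 pairs and one as large as that of HES1 in 9. Each of the 7 Notch genes rests on 1 probe set, and gaps between probe sets can also come from transcript variants. All probe sets were read on the same 2 arrays, so the gaps hold no variation between sorts or arrays. A gap is the distance between 2 differences and not the error of 1 difference. The values of JAG2, NOTCH1, NOTCH3, HES4 and HEY1 were smaller than the median gap.

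The wider pathway was described from lists by role, with 83 of 103 genes measured and 63 at the floor. Of these 63 genes, 6 (9.52%) had an SP value at least 1.5-fold above NSP and 0 were lower by that margin, beside the shares of 3.10% and 1.43% among all genes. The 6 are JAG1, the corepressor genes SPEN and TLE3, and MYC, ID1 and ID3 from the list of other described targets. The median difference of the 83 genes was 0.02, with 48 higher and 34 lower in SP. Higher values in SP were seen for 49.2% of all genes and 40.1% of those at the floor. As these genes have shared roles and were listed with earlier results of these data known, nothing particular to the pathway is read from the counts.

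Most genes that glycosylate the receptor had slightly lower values in SP, none past 1.5-fold. POFUT1, the enzyme that puts O-fucose on the receptor's EGF repeats, had 9.19 in SP and 9.69 in NSP. Its difference of -0.50 was the lowest of the whole pathway. POGLUT1, which adds O-glucose, had 8.13 in SP and 8.34 in NSP, and POGLUT3 had 7.41 and 7.52. Over the glycosylation list 2 of 7 measured genes were higher and 5 lower, with a median of -0.11, and none of the 4 at the floor passed 1.5-fold. Lower values in SP were common in the whole table, at 49.5% of all genes and 59.6% of those at the floor.

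The cleavage list also held small differences, in both directions. PSEN2, a catalytic subunit of gamma-secretase, had 7.75 in SP and 8.05 in NSP. NCSTN, which encodes its subunit nicastrin, had 10.38 and 10.51, and APH1A, a scaffold subunit, 9.08 and 9.15. Of 5 measured cleavage genes 1 was higher and 4 lower, with a median of -0.13 and none past 1.5-fold. Among all genes at the floor 59.6% were lower in SP, so small negative values were common. The other genes of this list with a value had only shared probe sets. ADAM17, a protease of the receptor, shared its probe set with IAH1, which had 9.24 in SP and 8.89 in NSP, the largest difference of the list. ADAM10, its main relative in this role, had 10.73 and 10.77 together with HSP90AB4P, and PSENEN, a gamma-secretase subunit, 10.19 and 10.44 together with LIN37.

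Genes that move ligand and receptor through the cell went both ways. ITCH, a ubiquitin ligase that marks Notch for breakdown, had 10.05 in SP and 9.65 in NSP, and NUMB, an endocytic inhibitor of the receptor, 8.76 and 8.41. MIB1, the ubiquitin ligase that ligands need in order to signal, had 7.88 in SP and 8.20 in NSP. The median was 0.00 over the 13 measured genes and -0.11 over the 9 at the floor, none of which passed 1.5-fold.

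In the nucleus, RBPJ, the DNA-binding partner of cleaved Notch, had 9.19 in SP and 9.17 in NSP. Its partners went both ways. The Mastermind gene MAML2 had 7.89 in SP and 7.47 in NSP, the acetyltransferase gene CREBBP 10.02 and 9.60, and CDK8, a kinase that phosphorylates the cleaved receptor, 8.33 and 7.97. The acetyltransferase gene KAT2A had 9.33 in SP and 9.65 in NSP, and CCNC, the cyclin partner of CDK8, 8.64 and 8.82. Of 11 measured genes of the activation complex 9 were higher and 2 lower, with a median of 0.09. The share higher in SP was 49.2% over all genes and 40.1% over those at the floor, where most of the 11 lay. None of the 10 at the floor passed 1.5-fold.

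Among corepressors, SPEN and TLE3 were higher in SP. SPEN, which holds RBPJ target genes silent in the absence of Notch, had 9.79 in SP and 8.95 in NSP, or 1.80-fold. TLE3, a Groucho-type corepressor recruited by HES proteins, had 9.67 and 8.84, or 1.77-fold. HDAC1, a histone deacetylase found in many repressor complexes, had 10.29 in SP and 10.70 in NSP. Of the 12 corepressor genes at the floor, 2 (16.7%) thus passed 1.5-fold upwards and 0 downwards, beside 3.10% and 1.43% of all genes. The median was 0.02 over the 15 measured genes and -0.07 over the 12 at the floor. Of the 15, 8 were higher and 7 lower, beside 49.2% and 49.5% of all genes and 40.1% and 59.6% of those at the floor.

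Genes described as Notch targets in some cell types, most of which answer to many other signals, included 3 at least 1.5-fold higher in SP. MYC, a growth-promoting transcription factor, had 11.16 in SP and 10.31 in NSP, or 1.80-fold. ID3 and ID1, dominant-negative helix-loop-helix proteins best known as targets of BMP signalling, had 9.74 against 9.10 and 10.65 against 10.02. These 3 were counted among 14 genes at the floor (21.4%, beside 3.10% of all genes), and none of the 14 was as much lower (1.43% of all genes). The list median over 16 genes was 0.09, with 12 higher and 4 lower, where 49.2% of all genes and 40.1% of those at the floor were higher.

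**Figure D4:**
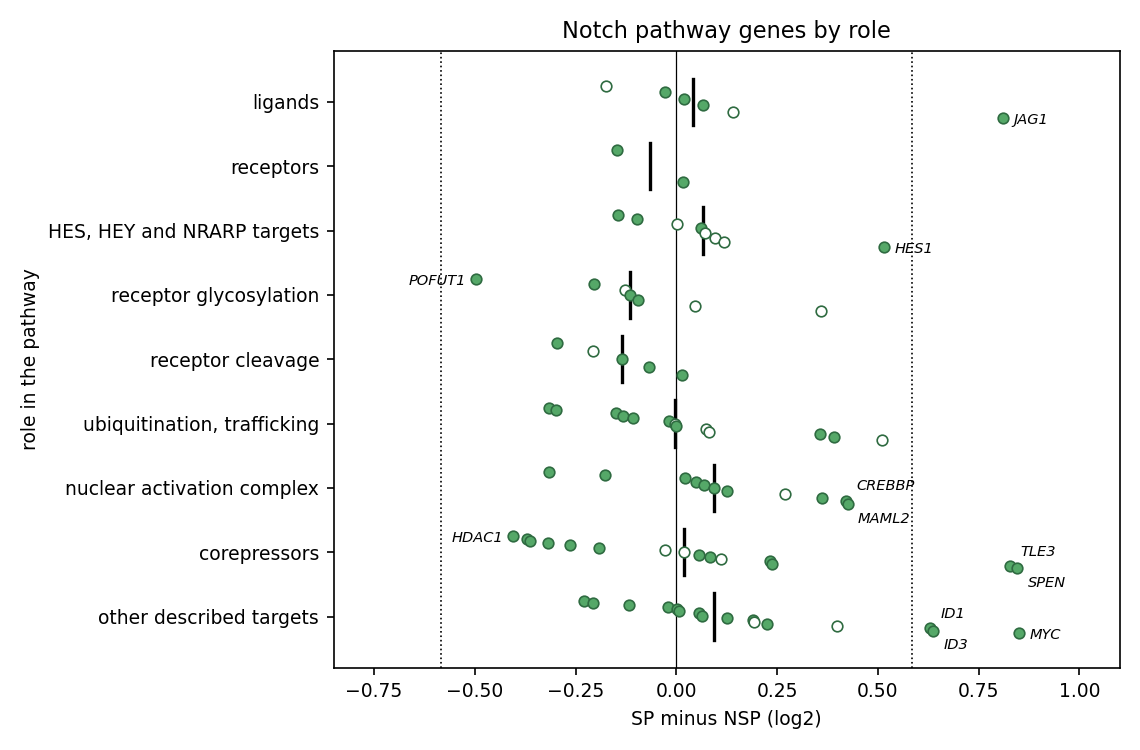
SP minus NSP (log2) of each measured pathway gene by role, with filled points for genes at the floor, open points for genes under it, black bars at the list medians and dotted lines at 1.5-fold. JAG1, SPEN, TLE3, MYC, ID1 and ID3 lie beyond the right dotted line and no gene beyond the left one.

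The motif matches of the sequences shown above were set beside the differences of all genes at the floor with a RefSeq window. The 411 genes with GTGGGAA had a median difference of -0.05, and so did the 5870 genes without it. Of those with the motif, 4.14% passed 1.5-fold upwards in SP and 1.70% downwards, against 3.05% and 1.35% of those without it. For the shorter core motif the shares higher in SP were 2.96% of 1520 genes with it and 3.17% of 4761 without. These shares are descriptions, and HES1 and HES4 are among the genes with both motifs.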

How the data were processed

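The deposited table holds log2 values of 22011 probe sets on 2 arrays. The authors made it with RMA and Partek, per the submitters' processing notes. The software versions, the genome build and the definition of probe sets were not given in the sources used here. Differences of dim probe sets are compressed by RMA, and precision is limited by the number of arrays, 2. Probe sets were named from the platform annotation (14432 with 1 symbol, 2408 with several, 5171 with none), and symbols were updated through Entrez identifiers to RefSeq of GRCh38.p14. The value of a gene is the mean of its single-symbol probe sets, and differences are SP minus NSP. No test was run, since each population has 1 array. Named genes were the 10 members, up to 3 further genes of each role list with the largest absolute difference at the floor, the other core ligands, receptors and HES or HEY genes, RBPJ, ABCB1 and ABCG2. UPK1A, UPK1B, UPK2, UPK3A, PECAM1, CDH5 and PTPRC markers come from marker lists. KAT2A, CCNC, PDGFRB, RGS5, KRT8, PPARG, CLDN5, CD68, CD14, NKG7, ADAM10, ADAM17 and PSENEN were named after their values were seen. Members and lists were chosen with earlier results of these data known. Motifs were searched in the 250 bases before each start, 35116 windows of 27305 genes. The counting code was checked on simulated data with differences well past the threshold, which tests the code and not the counts given here. Alternatives were centring, lowess (span 0.3), quantile normalisation, the brightest probe set, shared probe sets, other floors and other folds. Python 3.11.15, numpy 2.4.6, pandas 2.3.3, statsmodels 0.14.6 and matplotlib 3.10.9 were used.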

Additional observations from a re-analysis of the deposited data

How the results depend on the processing

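The differences of the 7 genes kept their sign under centring, lowess, quantile normalisation, the brightest probe set and the use of shared probe sets. JAG1 ranged from 0.81 to 0.89 and HES1 from 0.52 to 0.59. HES1 passed 1.5-fold only after the lowess trend on level was removed, at 0.59, which raised the count of higher genes among the 10 from 1 to 2. The threshold of 25% more signal also gave 2, and a 2-fold threshold 0. For the whole pathway the count of 6 higher and 0 lower became 12 and 4 at the threshold of 25%, and 0 higher at 2-fold. Removing the lowess trend gave 7 higher genes in the pathway instead of 6. The other floors left the counts of the members and of the pathway unchanged. With 1 array for each population, no library could be left out. No paired analysis was possible because the labels give no replicate numbers and each group has 1 sample.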

Other observations

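A further pair of short lists was written after the values of the Notch genes had been seen. Non-canonical Notch ligands and modulators gave 8 measured genes, of which only CCN3, a matricellular protein reported to bind NOTCH1, reached the floor, with 9.73 in SP and 9.50 in NSP. All 8 had a higher value in SP, by 0.04 to 0.32. The 7 others were under the floor, where 59.6% of all 6683 genes were higher in SP. Of the hairy-related repressors outside the HES and HEY families, BHLHE40, a gene of the clock and of the hypoxia response, had 11.87 in SP and 10.99 in NSP. Its difference of 0.89 was larger than that of HES1. BHLHE41 had 6.93 and 6.84, both under the floor.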
